A study of Mus musculus with 4 samples.

Results

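MHC class I antigen presentation was followed through 10 genes: the heavy chains H2-K1 and H2-D1, the light chain B2m, the peptide transporter and loading genes Tap1, Tap2 and Tapbp, the immunoproteasome subunits Psmb8, Psmb9 and Psmb10, and the transactivator Nlrc5. They were picked by symbol for their role in the pathway, with earlier results of these data known. All 10 were found among the 26322 genes listed. The cells were MC38, a mouse colon cancer line, electroporated with Cas9 and either a non-targeting guide (labelled WT; sgNT in the study) or a guide against Cbfb (labelled CbfbKO; sgCbfb). CBFβ is the non-DNA-binding partner of the RUNX transcription factors, and the study compared these cells to look for transcripts tied to how tumour cells respond to TNF from T cells. There were 2 WT and 2 CbfbKO libraries, made at least 1 week after electroporation, and the labels name no added cytokine or T cells. The study's methods give 1 Cbfb guide and mention no cloning of the edited cells. The labels do not say whether replicates were separate electroporations, so p-values measure the spread between these libraries, which may be technical.

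Class I molecules display peptides from inside the cell to CD8+ T cells. The proteasome cuts cytosolic proteins, the TAP transporter moves the peptides into the endoplasmic reticulum, and tapasin (Tapbp) holds the transporter beside empty class I molecules until a peptide binds. Interferon-gamma raises most of these genes, and it also swaps the constitutive catalytic subunits of the proteasome for the immunoproteasome subunits. MC38 comes from a C57BL/6 mouse, whose classical heavy chains are H2-K1 and H2-D1, the haplotype of the reference genome. The CAR-T cells used in the study recognise their target without class I, unlike T cells that act through a T cell receptor.

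The libraries were 3′ mRNA sequencing libraries, in which each read comes from the end of a transcript and read number does not grow with transcript length. They held between 3189035 and 3907936 reads counted on genes, recovered from the deposited log2 CPM (reads scaled to the library total), so that 1 read was worth between 0.256 and 0.314 CPM. Cbfb, the targeted gene, had 295 and 285 reads in the WT libraries and 125 and 125 in the CbfbKO libraries (log2 fold change -1.27 with a standard error, SE, of 0.12 and an adjusted p of 1.76e-07 from limma). Colon epithelial markers were nearly absent, with 3 of 9 (Krt18, Cdx1 and Vil1) at 0 reads in every library and 0 to 4 reads of any marker per library, and summed levels of 1.77 to 1.799 CPM in WT and 1.57 to 1.79 CPM in CbfbKO. Of 14 haematopoietic and antigen-presenting cell markers, 9 were at 0 reads in every library, Cd3e, Cd8a, Itgam and Adgre1 among them. Their summed level was 1.18 to 1.499 CPM in WT and 2.30 to 3.45 CPM in CbfbKO, made of Cd74, the class II chains H2-Aa and H2-Ab1, 1 read of Ptprc and 1 of Ciita, and its part in the results was not tested. Of 6 fibroblast markers 2 (Lum and Thy1) were at 0, and the sum, mostly Pdgfra and Dcn, was 64.8 to 71.0 CPM in WT and 76.3 to 81.5 CPM in CbfbKO, a difference whose part in the results was not tested either. Of 3 endothelial markers Kdr was at 0, and the sum lay between 0.294 and 0.600 CPM in WT and between 0.314 and 0.512 CPM in CbfbKO. In bulk RNA, a change in the share of cells that express a gene and a change in RNA per cell cannot be told apart.

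Tap1 rose in CbfbKO cells, and the remaining members had smaller positive differences that did not pass the test. Tap1, 1 of the 10 members, was called higher in CbfbKO cells at an adjusted p under 0.05 by limma with Benjamini-Hochberg adjustment, and 0 were called lower. Of all 12207 genes tested, 192 were higher (1.57%) and 153 were lower (1.25%), a split that voom on recovered reads with median scaling turned to 174 higher and 243 lower. All 10 members passed the low-value filter and all 10 had a positive log2 fold change, beside 57% of all genes tested. Their median was 0.25 and that of all genes tested was 0.039. The unadjusted p was under 0.05 for 5 members, all of them higher, beside 9.67% of all genes tested that were higher with such a p. Both CbfbKO libraries lay above both WT libraries for 7 members, a pattern shown by 27.4% of all genes tested (44.1% did not overlap in either direction), and 3 members overlapped. As the members were chosen with earlier results of these data known, these comparisons with all genes describe the set and do not test it. An exact permutation test of 1 gene, with so few libraries, gives no p under 0.333, so calls rest on the spread that limma shares between genes.

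**Figure D1:**
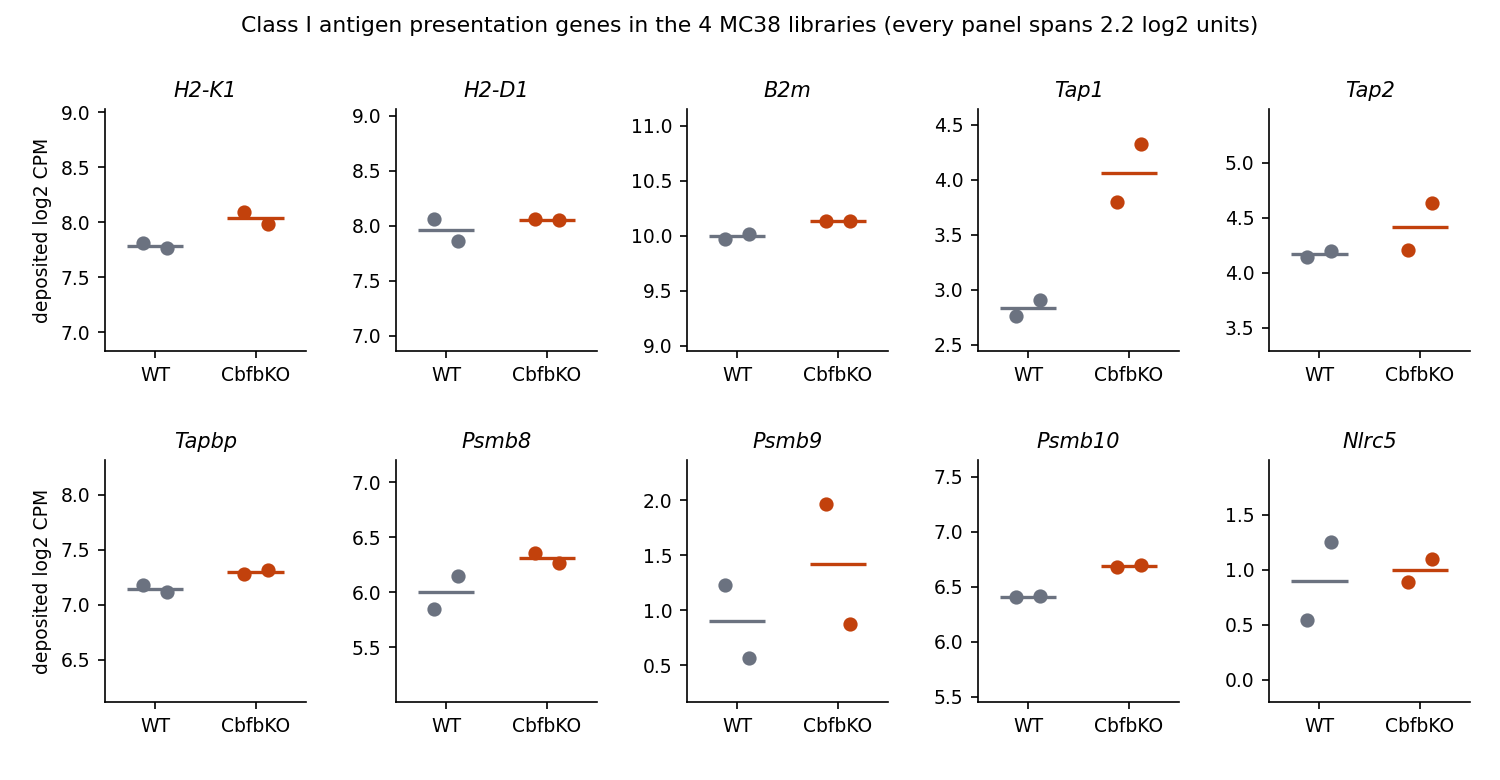
Deposited log2 CPM of the 10 members, with 1 point per library (grey, WT; orange, CbfbKO) and a line at each group mean of 2 libraries; each panel spans the same 2.2 log2 units. The CbfbKO points of Tap1 stand clear of the WT points, while H2-D1, Psmb9 and Nlrc5 overlap.

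**Figure D2:**
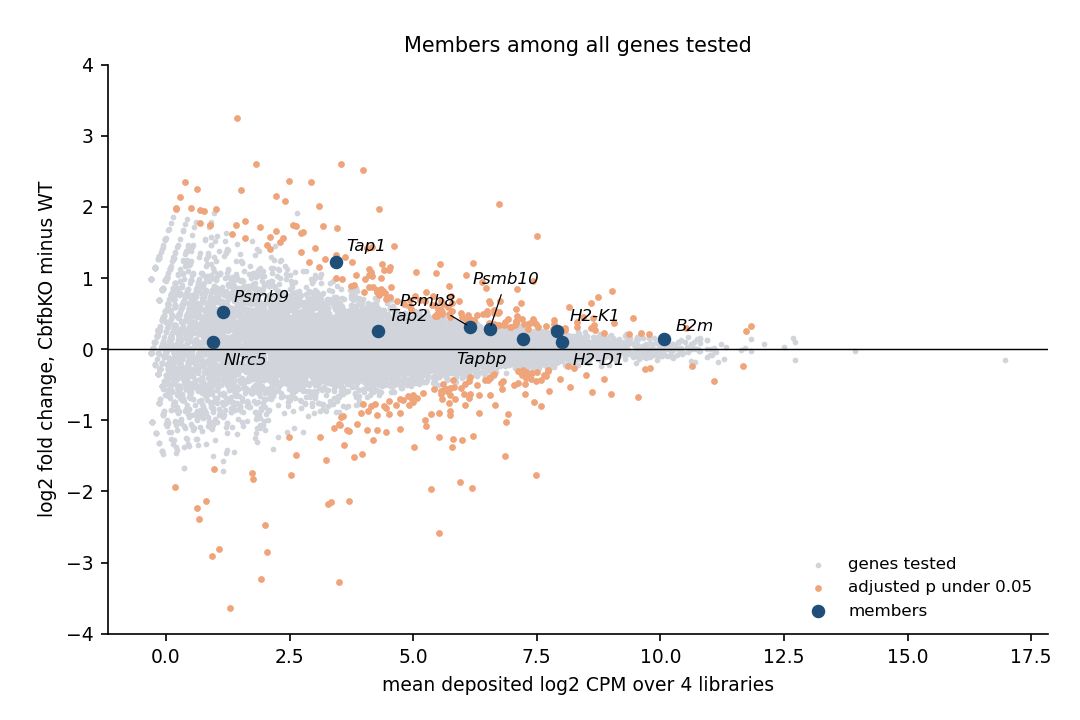
Log2 fold change (CbfbKO minus WT) against the mean deposited log2 CPM over the 4 libraries, with 1 point per gene: 12207 genes tested in grey, those past an adjusted p of 0.05 in light orange and the members in blue. Tap1 is the member farthest from 0, and the scatter of all genes widens towards low levels, where Psmb9 and Nlrc5 lie.

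Tap1 and Tap2 encode the subunits of the transporter that carries peptides into the endoplasmic reticulum. Tap1 had 21 and 23 reads in WT and 52 and 62 in CbfbKO, or 6.18 and 6.90 CPM against 13.3 and 19.4 CPM. Both CbfbKO libraries were thus higher than both WT libraries, and they differed from each other more than the WT libraries did. Tap1 was 2.83 ± 0.10 log2 CPM (SD, n = 2) in WT and 4.06 ± 0.37 (SD, n = 2) in CbfbKO. Its log2 fold change was 1.23 (SE 0.27, 95% confidence interval 0.68 to 1.78, limma adjusted p = 0.00764), which is 2.35-fold with an interval of 1.602 to 3.43. Leaving out any 1 library kept the change between 0.97 and 1.49. The call was kept without WT replicate 2 (adjusted p = 0.0396) and lost without WT replicate 1 (0.0687), CbfbKO replicate 1 (0.525) or CbfbKO replicate 2 (0.511) in the same limma test. It was also lost with quantile normalization (0.153), without the mean-variance trend (0.203) and without the low-value filter (0.575). Voom on the recovered reads gave an adjusted p of 0.00497 with library totals.

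Tap2, the other subunit of the transporter, had 58 and 59 reads in WT and 70 and 77 in CbfbKO. This came to 17.1 and 17.7 CPM in WT and 17.9 and 24.1 CPM in CbfbKO, so that 1 CbfbKO library was next to the WT libraries and 1 above them. The log2 fold change was 0.25 (SE 0.20, limma adjusted p = 0.620) and its interval ran from -0.16 to 0.67. It was 0.04 without CbfbKO replicate 2 and 0.46 without CbfbKO replicate 1. Tap1 made up 26.6% of the reads of both genes in WT replicate 1 (95% exact binomial interval 17.3% to 37.7%) and 28.05% in WT replicate 2 (18.7% to 39.1%). In CbfbKO it made up 42.6% in replicate 1 (33.7% to 51.9%) and 44.6% in replicate 2 (36.2% to 53.3%). These intervals cover counting error only, and those of the WT and CbfbKO libraries overlap. The difference between the changes of Tap1 and Tap2 was not tested.

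Tapbp encodes tapasin, which bridges the transporter and class I molecules and favours peptides that bind well. It had 491 and 461 reads in WT and 604 and 507 in CbfbKO, or 145 and 138 CPM against 155 and 159 CPM. The CbfbKO libraries were the higher ones by a narrow margin. For Tapbp the log2 fold change came to 0.15 (95% confidence interval -0.02 to 0.31, limma adjusted p = 0.407).

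Tap1 lies on chromosome 17 of GRCm38 from 34187553 to 34197225 on the plus strand, and Psmb9 lies beside it on the minus strand from 34181987 to 34187764 (GENCODE M21). By RefSeq their transcripts start back to back, at 34187556 and 34187330, with 225 bases between the start sites. That stretch is shown here because the called member and a member without a call share it. It is given 5′ to 3′ on the Tap1 strand from RefSeq (GRCm38.p6, chr17:34187331-34187555), and capitals mark the NF-Y box CCAAT and the cAMP-response core TGACG, both of which occur in class I promoters.

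Tap1-Psmb9: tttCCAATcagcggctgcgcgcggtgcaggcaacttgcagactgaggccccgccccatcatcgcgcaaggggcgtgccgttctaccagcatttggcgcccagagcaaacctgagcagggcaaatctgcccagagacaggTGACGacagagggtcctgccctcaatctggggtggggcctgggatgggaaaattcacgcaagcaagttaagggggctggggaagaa

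GENCODE M21 lists a longer Psmb9 transcript that starts inside Tap1, so this stretch lies within that gene model. The stretch held neither RUNX motif searched (TGTGGT and TGCGGT, both strands), and no IRF pair (GAAA repeated after NN) or gamma-activated site (TTCNNNGAA). RefSeq promoter windows, which reach from 250 bases before to 50 bases after a start site, were matched for 8 of the 10 members, all but Tap2 and Nlrc5. TGTGGT was in the windows of 2 of these 8 (Psmb10 and Tapbp) and in 16.8% of all 32851 windows, and TGCGGT was in 0 of 8 and in 6.45% of all windows. CCAAT was in 6 of 8 (B2m, H2-D1, H2-K1, Psmb9, Tap1 and Tapbp) and in 37.4% of all windows. TGACG was in 5 of 8 (the same genes without Tapbp) and in 20.8% of all windows. Tap1 and Psmb9 share the same bases here, as their windows overlap. The IRF pair was found in B2m alone, as was the canonical κB site of NF-κB, and TTCNNNGAA in Psmb8 alone, against 3.44%, 0.155% and 8.30% of all windows. A further NF-κB motif searched, GGGA and TTCCC with 1 open base between them, was in 0 of 8 and in 0.359% of all windows. These are matches of letters and not measured binding sites.

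H2-K1 and H2-D1, the classical heavy chains, present the peptides and are read by the T cell receptor. H2-K1 (chromosome 17, 33996017 to 34000347, minus strand) had 759 and 723 reads in WT and 1062 and 807 in CbfbKO. Its levels were 223 and 217 CPM in WT and 272 and 253 CPM in CbfbKO, with no overlap. The log2 fold change of 0.25 (SE 0.071, 95% confidence interval 0.10 to 0.40), a 1.19-fold difference, missed the threshold in the limma test with an adjusted p of 0.0548. It passed with a minimum of 5 CPM (adjusted p = 0.0212), with vooma weights (0.0452) and with voom on library totals (0.0278), but not with median centring (0.0783) or with voom and median scaling (0.0712). Over all alternatives its adjusted p ranged from 0.0212 to 0.575. Leaving out any 1 library kept the change between 0.20 and 0.30.

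H2-D1 (chromosome 17, 35262730 to 35267499, plus strand) had 905 and 772 reads in WT and 1040 and 843 in CbfbKO. At 266 and 231 CPM in WT and 266 and 264 CPM in CbfbKO, the CbfbKO libraries fell within the range of the WT libraries. The log2 fold change was 0.09 (95% confidence interval -0.06 to 0.25, limma adjusted p = 0.615). It was -0.0067 without WT replicate 2 and 0.20 without WT replicate 1. H2-K1 gave 45.6% and 48.4% of the reads of both heavy chains in WT and 50.5% and 48.9% in CbfbKO. The exact binomial intervals, which cover counting error only, were 43.2% to 48.0% and 45.8% to 50.9% in WT and 48.4% to 52.7% and 46.5% to 51.4% in CbfbKO. Of the 4 pairings of a WT with a CbfbKO library, those of WT replicate 1 and CbfbKO replicate 1 alone were apart. The difference between the heavy chains was not tested.

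The sequences upstream of the heavy chains are set side by side because the genes are close relatives and each has its own values here. Each covers the 250 bases before a RefSeq start site, 5′ to 3′ on the gene's strand (GRCm38.p6; H2-K1, chr17:34000348-34000597, minus strand; H2-D1, chr17:35262844-35263093, plus strand). Capitals mark, in either orientation, an NF-κB motif that starts with GGGG, the short IRF core GAANNGAAA, TGACG and CCAAT. The first pair of motifs was added after the windows had been read.
H2-K1: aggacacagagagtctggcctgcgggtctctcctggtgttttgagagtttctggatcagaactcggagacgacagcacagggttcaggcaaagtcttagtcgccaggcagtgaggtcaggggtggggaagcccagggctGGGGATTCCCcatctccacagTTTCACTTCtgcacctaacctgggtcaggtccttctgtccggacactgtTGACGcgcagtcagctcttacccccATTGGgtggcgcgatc
H2-D1: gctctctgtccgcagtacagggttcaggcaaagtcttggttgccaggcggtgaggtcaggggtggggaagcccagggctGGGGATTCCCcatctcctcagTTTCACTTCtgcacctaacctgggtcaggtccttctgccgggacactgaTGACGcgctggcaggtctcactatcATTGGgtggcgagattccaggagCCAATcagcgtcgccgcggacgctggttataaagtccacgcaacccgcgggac

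The sequences were 90.96% identical over the 177 bases that aligned, without gaps, and H2-D1 carried the marked motifs of H2-K1 in the same order. The last of these starts at base 235 of the H2-K1 stretch and at base 175 of the H2-D1 stretch. H2-D1 has 1 more CCAAT at base 198. The matching bases of H2-K1 lie past the end of its stretch, so the genes cannot be compared there. That NF-κB motif was in these 2 of the 8 members' windows and in 0.107% of all windows, and GAANNGAAA was in the same 2 and in 7.52% of all windows. GENCODE M21 starts an H2-D1 transcript further upstream, so the H2-D1 stretch lies within that gene model. Paralogs can share reads, and the handling of reads that fit several genes is not given in the sources used here. In the last 500 bases of the longest coding transcript, 0 of 426 windows of 75 bases, the read length, matched a transcript of another gene exactly, for H2-K1, H2-D1 and each of the other members.

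B2m encodes β2-microglobulin, the light chain without which classical heavy chains do not reach the surface. On chromosome 2 (122147686 to 122153083), it had the most reads of the members, 3406 and 3461 in WT and 4385 and 3581 in CbfbKO. Its levels were 1003 and 1038 CPM in WT and 1122 and 1123 CPM in CbfbKO. Both CbfbKO libraries were higher, and the groups did not overlap. B2m thus had a log2 fold change of 0.14 (SE 0.052, 95% confidence interval 0.03 to 0.25, limma adjusted p = 0.185), and no alternative brought it past the threshold, with adjusted p from 0.0625 to 0.900. There were between 2.05 and 2.32 B2m reads for each read of H2-K1 and H2-D1 together in the WT libraries and between 2.09 and 2.17 in the CbfbKO libraries, so the groups overlapped.

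**Figure D3:**
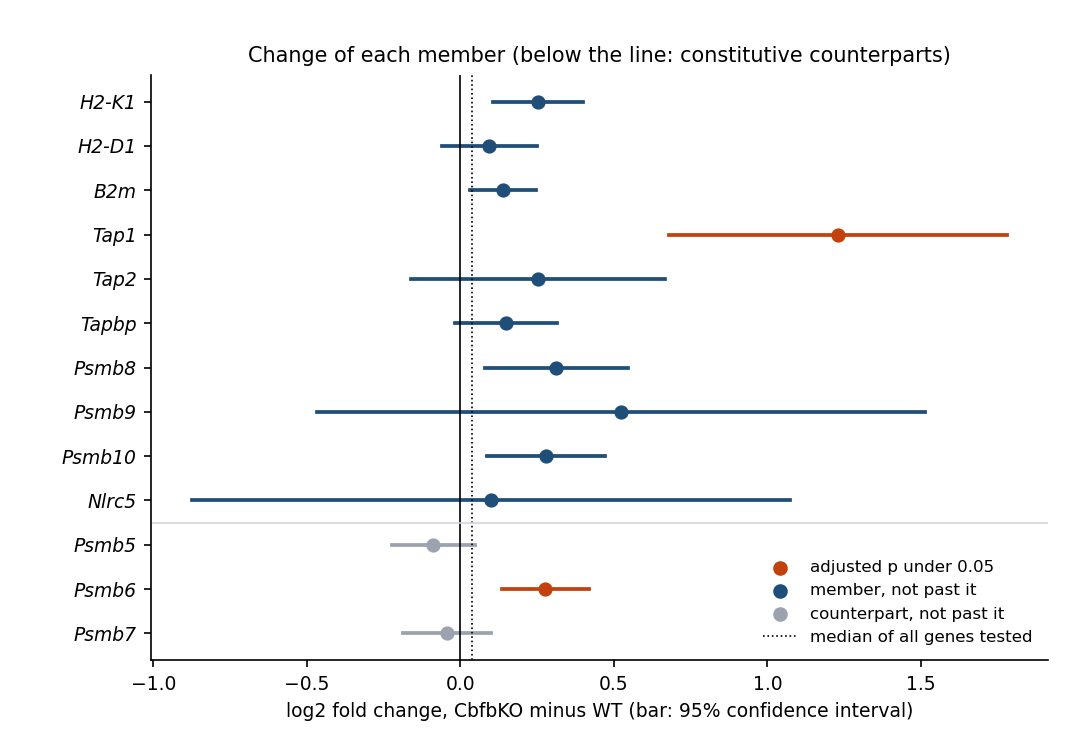
Log2 fold change (CbfbKO minus WT) of the members and, below the line, of the constitutive proteasome subunits, with 95% confidence intervals from limma; the dotted line is the median of all genes tested, 0.039. Tap1 and Psmb6 were past the threshold, and the intervals of Psmb9 and Nlrc5 are the widest.

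The immunoproteasome subunits replace their constitutive counterparts in the core particle and change which peptides are made. Psmb8, which replaces Psmb5, had 194 and 234 reads in WT and 317 and 244 in CbfbKO. The levels were 57.1 and 70.2 CPM in WT and 81.1 and 76.5 CPM in CbfbKO, the groups apart but the WT libraries spread widely. This gave a log2 fold change of 0.31 (95% confidence interval 0.08 to 0.55, limma adjusted p = 0.163), which was 0.17 without WT replicate 1 and 0.46 without WT replicate 2.

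Psmb10, which replaces Psmb7, had 286 and 282 reads in WT and 398 and 329 in CbfbKO, at 84.2 and 84.6 CPM against 102 and 103 CPM. The replicates were close to each other in both groups. Psmb10 had a log2 fold change of 0.28 (SE 0.093, 95% confidence interval 0.09 to 0.47, limma adjusted p = 0.124), and leaving out any 1 library kept it between 0.27 and 0.29. It lies on chromosome 8 (105935735 to 105938444), away from the other subunits. The targeted gene Cbfb lies on the same chromosome (105170674 to 105217989), and an effect of the edit on nearby genes was not tested.

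Psmb9, which replaces Psmb6, had few reads, 6 and 3 in WT and 13 and 4 in CbfbKO. The groups overlapped, and CbfbKO replicate 1 alone stood higher. The log2 fold change of 0.52 had an interval from -0.47 to 1.51 (limma adjusted p = 0.683), and it turned to -0.023 without CbfbKO replicate 1. A change as large as that of Tap1, its neighbour on the shared stretch, lies inside this interval and was not detectable at this depth.

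The constitutive subunits did not follow one direction. With a log2 fold change of 0.28 (limma adjusted p = 0.0245, SE 0.069), Psmb6 rose from 243 ± 11 CPM (SD, n = 2) in WT to 294 ± 4.9 CPM (SD, n = 2) in CbfbKO. Its call was lost in 7 of 14 alternatives, among them each of the 4 that left out a library. Psmb5 was at -0.09 (95% confidence interval -0.22 to 0.05) and Psmb7 at -0.04 (-0.19 to 0.10), and neither passed. Leaving out 1 library moved Psmb5 between -0.13 and -0.05 and Psmb7 between -0.07 and -0.02. Of the 426 windows near the end of Psmb5, 42.5% also matched Gm3375, so its level is uncertain.

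Shares of reads within a pair do not depend on library totals. Psmb8 gave 14.6% of the Psmb8 and Psmb5 reads in WT replicate 1 (95% exact binomial interval 12.8% to 16.6%) and 17.03% in WT replicate 2 (15.1% to 19.1%). It gave 20.8% (18.8% to 22.9%) and 19.0% (16.9% to 21.2%) in CbfbKO. These shares carry the uncertainty of the Psmb5 reads, which may be shared with Gm3375. Psmb10 gave 24.3% and 25.1% of the Psmb10 and Psmb7 reads in WT and 28.9% and 29.3% in CbfbKO, with both CbfbKO libraries higher. Its exact binomial intervals (21.9% to 26.9% and 22.6% to 27.7% in WT, 26.6% to 31.4% and 26.7% to 32.1% in CbfbKO) overlap in each of the 4 pairings of a WT with a CbfbKO library. For Psmb9 and Psmb6 the shares were 0.699% and 0.382% in WT and 1.11% and 0.430% in CbfbKO, which overlap. Differences between these shares were not tested.

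Nlrc5 is the transactivator that switches on class I genes through their promoter boxes. On chromosome 8 (94434356 to 94527272), it had 3 and 6 reads in WT and 5 and 5 in CbfbKO, or 0.883 and 1.799 CPM against 1.28 and 1.57 CPM. The CbfbKO libraries lay within the WT range. The log2 fold change was 0.10 with an interval from -0.87 to 1.07 (limma adjusted p = 0.953), and its sign turned without WT replicate 1 (-0.25) or CbfbKO replicate 2 (-0.0049). In folds the interval reached from 0.545 to 2.10, and changes within it were not detectable at this depth.

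The other genes of the class I pathway were followed with a list of 79 genes, of which 72 passed the low-value filter. Of these 2 were higher (H2-Q7 and Psmb6, beside 1.57% of all genes tested) and 0 were lower (beside 1.25%) by limma with adjustment over all genes, while 12 had an unadjusted p under 0.05, beside 14.9% of all genes tested. The list had 47 positive and 25 negative log2 fold changes (beside 57% positive), with a median of 0.071 beside 0.039 over all genes tested.

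Among other class I heavy chains and class I-like genes, 11 of 18 were tested. Of these 1 was higher (beside 1.57% of all genes tested) and 0 were lower (beside 1.25%). Their median was 0.33 (beside 0.039), the value of Fcgrt, which had 3 and 5 reads in WT and 8 and 4 in CbfbKO. H2-Q7, a non-classical heavy chain on chromosome 17 (35439155 to 35443773) of the Qa-2 group, had 45 and 43 reads in WT and 127 and 92 in CbfbKO. It rose from 13.1 ± 0.25 CPM (SD, n = 2) to 30.7 ± 2.6 CPM (SD, n = 2). H2-Q7 had a log2 fold change of 1.19 (SE 0.19, 95% confidence interval 0.81 to 1.58, limma adjusted p = 0.000238), 2.29-fold. Its call was kept without WT replicate 1 or 2 and lost without CbfbKO replicate 1 or 2, when 0 of 12207 genes passed in the same test and 1104 and 1169 had an unadjusted p under 0.05. The Q genes are near copies of each other, and 1 of 426 windows near the end of H2-Q7 also matched H2-Q5. H2-M2, another non-classical chain, had 0 reads in both WT libraries and 4 and 2 in CbfbKO (limma adjusted p = 0.273), and a count of 0 allows up to 3 reads. H2-M2 passed the low-value filter only through the CbfbKO libraries, so its positive sign was fixed by the filter. It still counts in the median of this group and among the 12 pathway genes with an unadjusted limma p under 0.05.

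Genes for loading chaperones (6 of 6 tested) and the interferon-gamma arm (7 of 7) had 0 calls in either direction and 0 genes with an unadjusted p under 0.05, with medians of 0.052 and 0.048. Peptide trimming had 0 calls among 8 genes. Its smallest p belonged to Blmh, a cytosolic aminopeptidase, at 0.23 (limma adjusted p = 0.190), or 0.14 without CbfbKO replicate 1. The remaining core proteasome subunits had 0 calls among 11, with values of 0.16 for Psmb4 (adjusted p = 0.199, and 0.10 on the log2 scale without CbfbKO replicate 1) and 0.13 for Psma2 (adjusted p = 0.319).

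Proteasome activators and assembly factors had 0 calls among 9. Psme1, a subunit of the interferon-inducible activator, had 427 and 397 reads in WT and 578 and 484 in CbfbKO. Its log2 fold change was 0.29 (SE 0.083, limma adjusted p = 0.0574), next to the threshold like H2-K1. Pomp, which assembles new proteasomes, was 584 ± 14 CPM in WT and 679 ± 78 CPM in CbfbKO (SD, n = 2; log2 fold change 0.21, limma adjusted p = 0.0899). Psme1 and Pomp each passed in 3 alternatives, and Pomp was at 0.10 without CbfbKO replicate 1 and at 0.33 without CbfbKO replicate 2.

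Class I transcription factors and the chromatin proteins that silence the genes had 0 calls among 17. Of these 4 had an unadjusted p under 0.05 in limma, in both directions, beside 14.9% of all genes tested. Irf1, an interferon-induced activator of class I and Tap1, had 442 and 340 reads in WT and 557 and 467 in CbfbKO, with a log2 fold change of 0.33 (limma adjusted p = 0.0774). Leaving out 1 library moved it between 0.15 and 0.50, and it was called in 4 alternatives, among them without WT replicate 1 (limma adjusted p = 0.0134) and with a minimum of 5 CPM (0.0145). Nfkb1, the NF-κB precursor p105, had the opposite sign, at -0.51 (107 and 141 reads against 102 and 79; limma adjusted p = 0.0993). It passed in 2 alternatives, a minimum of 5 CPM (limma adjusted p = 0.0415) among them, and leaving out 1 library moved it between -0.72 and -0.30. The PRC2 subunits Ezh2 and Eed were at 0.20 and 0.26 (adjusted p = 0.232 and 0.271 from limma). Suz12, a further PRC2 subunit on the list, was at -0.0036 (limma adjusted p = 0.989).

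**Figure D4:**
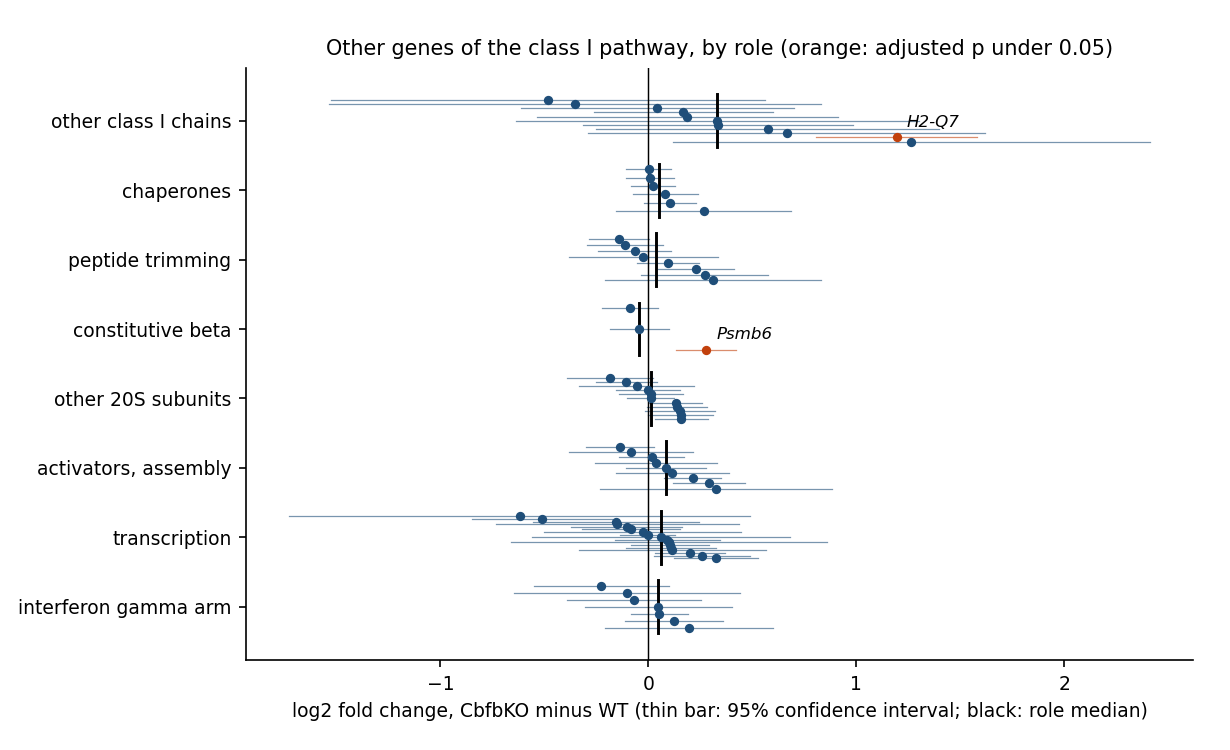
Log2 fold change (CbfbKO minus WT) of the 72 tested genes of the class I pathway list by role, with 1 point per gene, thin bars for the 95% confidence intervals from limma and black lines for the role medians. H2-Q7 and Psmb6, in orange, are past the threshold, and the role medians lie between -0.04 and 0.33, beside 0.039 over all genes tested.

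The members were not chosen by position. Of the 10 members 7 lie on chromosome 17, and 6 of them between the start of Tapbp at 33915899 and the end of Tap2 at 34216321, a stretch of 300.4 kb. That stretch holds 23 protein-coding genes of the table, of which 19 were tested, 3 were higher (beside 1.57% of all genes tested) and 0 were lower (beside 1.25%). There were 13 positive values (beside 57%), and the median was 0.15 (beside 0.039). The stretch is bounded by members, and 6 of the 13 positive values are theirs. The 13 tested genes that are no members had 7 positive and 6 negative values, with a median of 0.07. The genes called were Tap1, H2-DMb1 and Brd2, and the last pair is named because of its values. H2-DMb1, a chain of the chaperone that loads class II molecules, had 18 and 12 reads in WT and 62 and 51 in CbfbKO (log2 fold change 1.74, SE 0.28, limma adjusted p = 0.000408). Brd2, a bromodomain reader of acetylated histones, had 1652 and 1508 reads in WT and 2341 and 1956 in CbfbKO (0.37, SE 0.060, limma adjusted p = 0.000371). Both calls were lost without CbfbKO replicate 1 or 2, with quantile normalization (adjusted p of 0.0646 for H2-DMb1 and 0.0629 for Brd2 from limma), without the low-value filter and without the mean-variance trend, while the log2 fold changes stayed between 1.49 and 1.98 and between 0.32 and 0.42. The class II neighbours were near 0, as H2-DMa, whose model overlaps Brd2, had 1 read in all, H2-DMb2 had 0 and H2-Oa had 1 read in each of 2 libraries. Genes without a call lay between those called, as with Psmb9 between H2-DMb1 and Tap1.

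**Figure D5:**
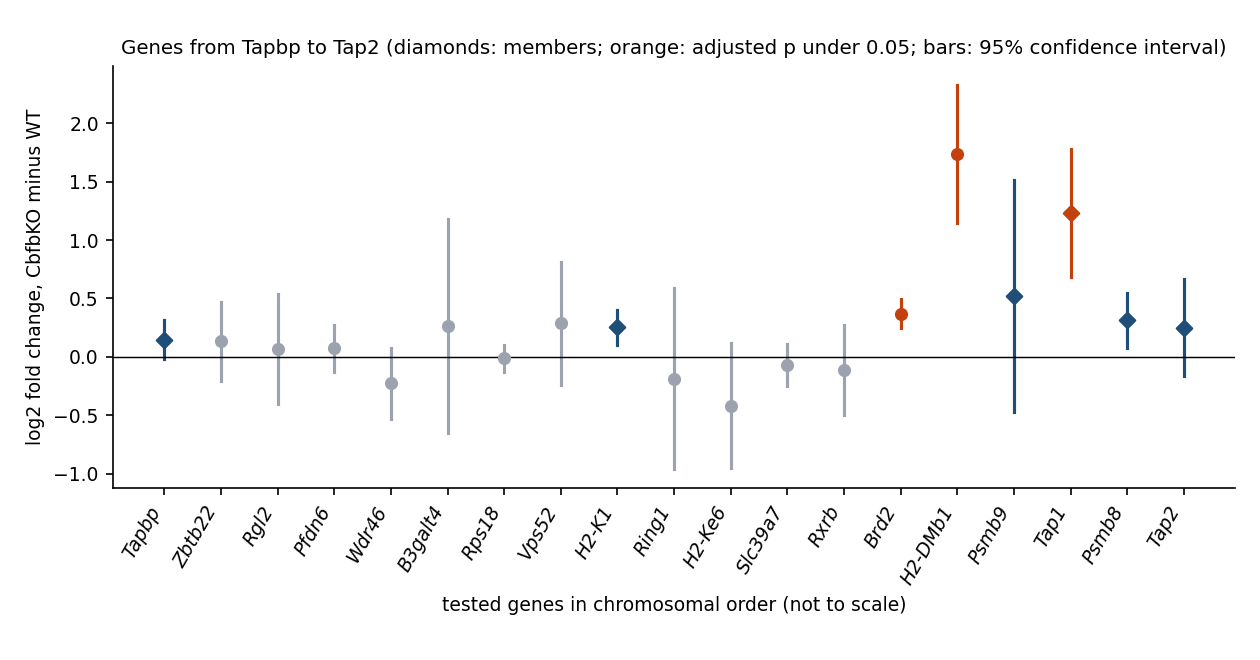
Log2 fold change (CbfbKO minus WT) of the 19 tested genes from Tapbp to Tap2 in their order on chromosome 17, evenly spaced, with 95% confidence intervals from limma; diamonds are members and orange marks genes past an adjusted p of 0.05. Brd2, H2-DMb1 and Tap1 are past the threshold, and the members on either side of them have smaller or less certain values.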

How the data were processed

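Total RNA of 2 WT and 2 CbfbKO MC38 libraries was profiled by 3′ mRNA sequencing. Per the study's methods and the submitters' processing notes, reads were trimmed with cutadapt 1.9, aligned to GRCm38/mm10 with HISAT2 2.1.0 and counted per gene with featureCounts (2.0.1 in the notes, while the study's methods give another version). The authors deposited log2 CPM values, whose floor for genes without reads fits a prior count averaging 2. The tool that made them, the annotation, the use of strand and the handling of multi-mapping reads are not given in the sources used here. Low values are spaced by single reads, which gave back each gene's read number, within 0.1 of a whole number for every value except Rn45s in WT replicate 2.

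The test used limma 3.58.1 on the log2 CPM of genes that reached 0 in 2 or more libraries, with R 4.3.3 (mean-variance trend, two-sided, Benjamini-Hochberg over 12207 genes, threshold 0.05). The study names voom and limma, which take counts, so voom on recovered reads was an alternative, as were other filters, scalings, variance models, the replicate block and leaving out each library. Genes named were Cbfb, the members, the constitutive counterparts and the 12 pathway genes with the smallest p-values, with exceptions said beside them. Members and lists were chosen with earlier results of these data known. Nrdc was matched as Nrd1 through RefSeq synonyms. Positions are from GENCODE M21 and promoters from RefSeq (GRCm38.p6). Alignment used Biopython 1.88. Replicates differed by more than sampling noise (chi-square per degree of freedom 1.58 for WT and 2.15 for CbfbKO over 9520 genes).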

Additional observations from a re-analysis of the deposited data

How the results depend on the processing

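The log2 fold changes of the members kept their sign under the filters, scalings and variance models tried, except that Psmb9 and Nlrc5 were not tested with a minimum of 5 CPM, and changed it only where a library was left out. H2-D1 ranged from -0.0067 to 0.20, Psmb9 from -0.023 to 1.07 and Nlrc5 from -0.25 to 0.45 over those fits. Counts of calls moved more. Without a low-value filter 2 genes were higher and 53 lower, with 0 members and 0 pathway genes among them, and without the mean-variance trend 0 were higher and 0 lower in limma (1461 at an unadjusted p under 0.05), and the Cbfb change of -1.27 missed the threshold in both. A minimum of 5 CPM gave 300 higher, with 2 members (H2-K1 and Tap1), 5 pathway genes higher and 1 lower. Quantile normalization gave 39 higher and 44 lower, with 0 members and 1 pathway gene. Vooma weights and voom with library totals each called 2 members, and the latter called 5 pathway genes. Voom with median scaling gave 174 higher and 243 lower (41.7% higher, against 55.7%). Leaving the rRNA genes Rn45s and Rn18s out of the totals, an alternative chosen after seeing the data, gave 155 higher and 165 lower (48.4%), and median centring 176 and 188 (48.4%). An adjusted p under 0.01 left 103 higher and 97 lower, with 1 pathway gene. When single libraries were left out, 0 to 115 genes were higher and 0 to 86 lower, with 0 to 1 members and 0 to 2 pathway genes, and Cbfb ranged from -1.41 to -1.12. The counts of 0 came without either CbfbKO library, where Cbfb itself was not called (adjusted p of 0.267 and 0.193). Except where stated, the cause was not tested. No other pseudocount was tried by itself, as the values were deposited as log2. The voom fits on recovered reads used voom's own offset in place of the deposited prior count, along with other weights. With library totals they moved H2-M2 from 1.26 to 2.70 and Psmb9 from 0.52 to 0.70. Low read numbers limit Tap1, Psmb9 and Nlrc5.

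The replicate block gave 320 genes higher and 215 lower, with 2 members (H2-K1, limma adjusted p = 0.0359, and Tap1), 5 pathway genes higher and 1 lower. The labels tie replicate numbers to no shared culture or day, and deviations of same-numbered libraries correlated at r = -0.0042 across genes, which are not independent replicates.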

Other observations

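The table lists 39 symbols that start with H2-, class I genes included, of which 19 had 0 reads in every library and 14 were tested. H2-Q7 and H2-DMb1 were higher in CbfbKO cells by limma (beside 1.57% of all genes tested) and 0 were lower (beside 1.25%), and both calls were lost without either CbfbKO library. H2-DMb1 was picked for its value, and its log2 fold change lay between 1.49 and 1.98 over the alternatives. The class II chains themselves had almost no reads: H2-Aa had 0 and 2 in WT and 5 and 2 in CbfbKO, H2-Ab1 had 2 and 1 in WT and 1 and 2 in CbfbKO, and H2-Eb1 had 0 in every library. Ciita, the class II transactivator, had 1 read in CbfbKO replicate 2 and 0 elsewhere. Cd74, the invariant chain, had 1 and 2 reads in WT and 3 and 6 in CbfbKO.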
